A study of Homo sapiens with 6 samples.

Results

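The membrane skeleton is a lattice under the plasma membrane, and 9 genes of its spectrin, ankyrin and adducin families were followed in PANC-1, a cell line of human pancreatic ductal carcinoma origin. They are SPTAN1, SPTB and SPTBN1 (spectrins), ANK1, ANK2 and ANK3 (ankyrins) and ADD1, ADD2 and ADD3 (adducins). The genes were chosen by name from a table of 58825 genes. Rows sharing a name were to be selected on mean FPKM (read fragments scaled by gene length and library size), but each name had 1 row, so no measured value decided between rows. RNA-seq covered 6 samples, 3 treated with 40 μM maslinic acid (MA), a triterpenoid of the olive plant, for 24 h (MA PANC-1 1 to 3) and 3 untreated (PANC-1 1 to 3, 0 μM). Untreated here means without MA. The study's culture methods name DMSO as the alternative to MA, and whether the untreated samples received it is not stated. All samples come from the same unmodified cell line, grown in serum-containing medium. The comparison asks what MA changes in the mRNA of these cells. Bulk RNA cannot tell fewer cells of a kind from less RNA per cell. The 9 genes were chosen with earlier results of these data known, so their changes describe the data and are no independent evidence.

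Spectrin is built from an alpha and a beta chain that lie side by side and join head to head into long flexible rods. The rods tie short actin filaments into a network. Adducins cap the fast-growing end of those filaments and help spectrin bind them, while ankyrins fasten beta spectrin to membrane proteins such as ion pumps, anion exchangers and cell adhesion molecules. The lattice was first described in the red blood cell, whose beta spectrin is SPTB and whose ankyrin is ANK1. SPTAN1 and SPTBN1 are the alpha and beta chains of most other cells. In epithelial cells the lattice lies along the lateral membrane, where ANK3 is the best known ankyrin.

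Of the 9 genes, SPTB fell after MA, to 0.388 of its level in untreated cells (95% interval 0.297 to 0.508), while its far more abundant paralog SPTBN1 was at 0.943 (0.823 to 1.08). ANK3 was at 0.592 of its untreated level, short of the 2-fold threshold. The other 5 genes with a test lay between 0.836 and 1.27 of their untreated level, and ADD2 had almost no reads. By the thresholds of the study, a 2-fold difference with an unadjusted p-value under 0.05, 1 of the 8 genes tested was called, lower after MA. Among all 17774 genes tested 1.92% were called, 1.25% lower and 0.675% higher. No gene of the 8 passed an adjusted p-value of 0.05 in edgeR's quasi-likelihood test, against 0.0394% of all genes (0.0169% lower and 0.0225% higher). An unadjusted p-value under 0.05 by edgeR was found for 2 of the 8, both lower, against 11.2% of all genes (5.86% lower and 5.37% higher). DESeq2 gave 3 such genes of the 8, 2 lower and 1 higher, against 12.1% of the 17707 genes to which it gave a p-value. The higher one was ANK2 (DESeq2 unadjusted p = 0.0489). Limma gave 1, lower after MA, against 11.0% of all genes. DESeq2 passed 1 of the 8 after adjustment, SPTB, against 1.80% of the 14623 genes to which it gave an adjusted p-value. Limma passed none, against 0.0450% of all genes.

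Before the values, the samples themselves were compared. The totals for MA PANC-1 1 to 3 were 56978375, 63984133 and 58181114 estimated counts, and for PANC-1 1 to 3 they were 70275355, 65607669 and 59422939. Each total exceeded the sequenced reads listed for its sample by the study, so a count is not 1 read, and how the counts were derived is not given in the sources used here. MA PANC-1 2 stood apart from the rest. On the first principal component of log2 CPM, which held 26.4% of the variance, it lay at −73.57, MA PANC-1 1 at −29.54 and the other 4 samples between 16.17 and 44.87. For the 8 genes tested, log2 fold changes that moved markedly without that sample are also given without it, which was not done for the genes of the other lists. Of 6 markers listed for the cell line, 3 were abundant in all 6 samples, with 278 to 338 FPKM for the keratin KRT18, 141 to 225 FPKM for KRT8 and 521 to 754 FPKM for the filament protein VIM. The other 3 were low or close to absent. The keratin KRT7 was at 1.40 to 2.19 FPKM, and the epithelial markers KRT19 and EPCAM reached no more than 0.109 and 0.132 FPKM.

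The promoters of both beta spectrins and of ANK3 are shown because SPTB and SPTBN1 encode like chains but differed in their change, and ANK3 was the other gene of the 8 with a lower level and an unadjusted p-value under 0.05. Each sequence holds the 250 bases before the RefSeq gene start in GRCh38.p14, written 5′ to 3′ on the gene's strand, at chr14:64879908-64880157 (minus) for SPTB, chr2:54456077-54456326 (plus) for SPTBN1 and chr10:60733529-60733778 (minus) for ANK3. Capitals mark 3 motifs on either strand. The GC box was searched as GGGCGG and its reverse complement CCGCCC. The GATA motif was searched as AGATAA and its reverse complement TTATCT. The TATA box was searched as TATAAA and its reverse complement TTTATA. No marked motif overlaps another in these windows.
SPTB: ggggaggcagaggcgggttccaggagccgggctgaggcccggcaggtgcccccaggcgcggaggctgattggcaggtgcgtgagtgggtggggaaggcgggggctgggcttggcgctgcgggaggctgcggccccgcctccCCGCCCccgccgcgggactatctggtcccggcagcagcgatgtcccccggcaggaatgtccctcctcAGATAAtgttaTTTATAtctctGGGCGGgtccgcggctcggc
SPTBN1: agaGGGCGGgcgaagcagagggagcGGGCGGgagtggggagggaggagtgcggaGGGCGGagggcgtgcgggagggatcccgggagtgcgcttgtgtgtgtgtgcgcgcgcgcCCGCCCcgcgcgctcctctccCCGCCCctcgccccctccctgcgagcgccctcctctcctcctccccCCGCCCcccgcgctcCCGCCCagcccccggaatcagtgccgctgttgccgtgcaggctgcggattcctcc
ANK3: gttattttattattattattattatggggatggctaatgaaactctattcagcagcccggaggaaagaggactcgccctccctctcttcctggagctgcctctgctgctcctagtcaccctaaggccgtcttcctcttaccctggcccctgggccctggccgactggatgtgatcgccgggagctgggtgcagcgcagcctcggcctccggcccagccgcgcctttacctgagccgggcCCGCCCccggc
The SPTB window held 1 GATA motif, 1 TATA box and 2 GC boxes, with 22 CpG dinucleotides. The SPTBN1 window held 7 GC boxes and 30 CpG, and neither of the other motifs. The ANK3 window held a single GC box and 14 CpG. Of the 35116 RefSeq promoter windows of this length, 9.17% held the GATA motif, 10.7% the TATA box and 42.6% the GC box, and the median window had 11 CpG. RefSeq windows were at hand for 8 of the 9 genes, ANK1 being the other one. Among them the GATA motif was also found in ADD3, the gene with the window poorest in GC (30.8%), and the TATA box in ADD3 and SPTAN1. The letters CCACCC, searched on both strands but not capitalised, were found in SPTB, SPTAN1 and ANK2 and in 31.3% of all windows, and the E-box CACGTG in none of the 8 and in 6.34% of all windows. The start used in PANC-1 cells was not measured, and a match of letters is not a binding site.

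The order of the mRNA levels per length was the same in both groups. Over all 6 samples the mean level was 34.0 FPKM for SPTBN1, 27.4 for SPTAN1, 10.9 for ADD1, 5.06 for ANK1, 3.42 for ADD3, 1.63 for ANK2, 0.562 for SPTB and 0.192 for ANK3. Neighbours in this order were separated in all 6 samples except ANK1 and ADD3, whose ranges of 4.24 to 5.72 and 2.20 to 4.39 FPKM met. The lowest SPTBN1 value, 31.9 FPKM, exceeded the highest SPTAN1 value, 31.2 FPKM, by less than the spread of either gene. ADD2, the beta adducin of red cells and brain, had 4 estimated counts in MA PANC-1 3 and 0 in the other samples, and was not tested. The deposited FPKM values were divided by more bases than one transcript has. For SPTB the divisor came to 14831 bases against 10177 in its longest coding transcript, and for ADD1 to 13233 against 4743. Divided by the longest coding transcript instead, the means over the 6 samples kept the same order, but SPTAN1 exceeded SPTBN1 in MA PANC-1 2 and ADD3 exceeded ANK1 in MA PANC-1 3 and PANC-1 3. On this scale ADD1 was at 36.2 length-scaled CPM against 67.2 for SPTAN1.

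**Figure D1:**
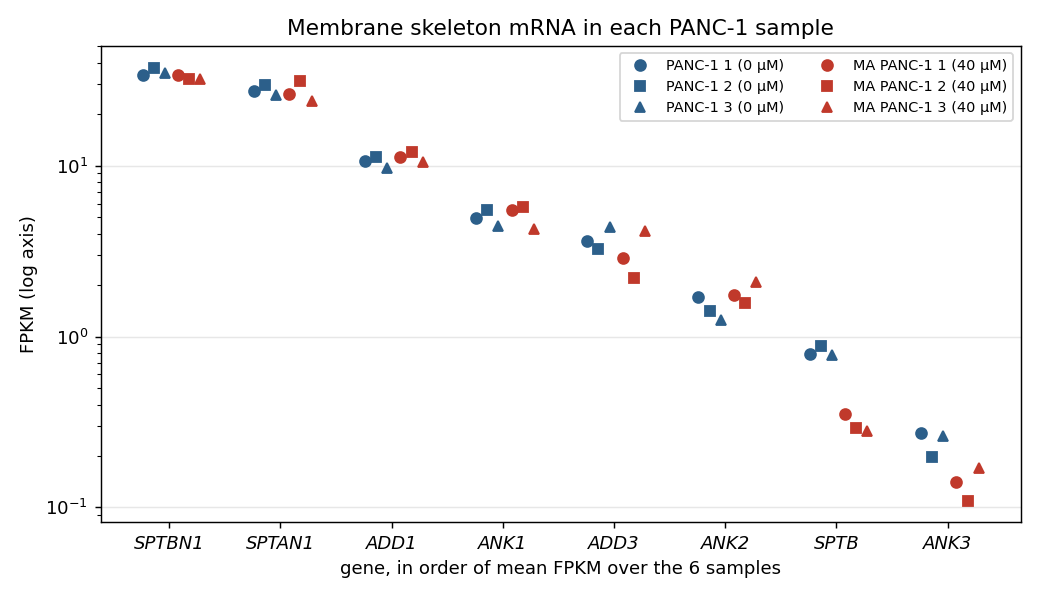
FPKM (log axis) of 8 genes in each of the 6 samples, ordered by mean level, with untreated samples in blue and MA treated samples in red and the replicate number given by the marker. SPTB falls from 0.779 to 0.880 FPKM in the untreated samples to 0.280 to 0.350 FPKM after MA, and ANK3, the lowest, does not overlap between the groups either. The gap of SPTBN1 is too narrow to see here. ADD2 is left out, having reads in 1 sample alone.

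Of the spectrins, SPTAN1 (ENSG00000197694, chromosome 9, 128552558 to 128633662, plus strand), the alpha chain that pairs with every beta spectrin outside the red cell, was at 26.1, 31.2 and 23.8 FPKM across MA PANC-1 1 to 3. It was at 27.4, 29.8 and 25.9 FPKM in PANC-1 1 to 3. The highest and the lowest of the 6 values were both from treated samples, so the groups overlapped. Its log2 fold change, MA PANC-1 against PANC-1, was 0.01 (standard error, SE, of 0.14, 95% interval −0.33 to 0.34, edgeR adjusted p = 0.989), and −0.15 without MA PANC-1 2, with that and other changes of setting turning its sign.

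SPTBN1 (ENSG00000115306, chromosome 2, 54456317 to 54671446, plus strand), the beta chain of most tissues, was at 33.7, 31.9 and 32.0 FPKM across MA PANC-1 1 to 3 and at 34.0, 37.5 and 34.7 FPKM in PANC-1 1 to 3. The groups did not overlap in FPKM, but the gap between them was 0.295 FPKM, and after TMM scaling of the counts they overlapped. The log2 fold change was −0.08 (SE 0.08, 95% interval −0.28 to 0.11, edgeR adjusted p = 0.710).

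SPTB (ENSG00000070182, chromosome 14, 64746283 to 64879907, minus strand), the beta chain of the red cell that is also made in muscle and brain, had the lowest p-value of the 8 genes. It was at 0.350, 0.293 and 0.280 FPKM across MA PANC-1 1 to 3, from 352, 333 and 290 estimated counts. In PANC-1 1 to 3 it was at 0.787, 0.880 and 0.779 FPKM, from 978, 1022 and 817 counts. Every treated sample lay below every untreated one, and the gap of 0.429 FPKM between the groups was wider than the range within either of them. The untreated mean of 0.815 ± 0.0561 FPKM (SD, n = 3) stood against 0.308 ± 0.0370 FPKM (SD, n = 3) after MA. The log2 fold change was −1.36 (SE 0.17, unadjusted p = 6.27e-05, edgeR adjusted p = 0.0879). It ranked 12 by p-value among the 17774 genes tested, just outside the 7 genes with an adjusted p-value under 0.05, while DESeq2 gave it an adjusted p-value of 2.33e-10. The exact two-sided permutation test over the 6 samples gave p = 0.1, the smallest that 3 samples against 3 allow. Leaving out each sample in turn gave log2 fold changes from −1.45 to −1.28, and −1.37 without MA PANC-1 2.

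SPTB overlapped PLEKHG3 on the opposite strand at the end of both genes. PLEKHG3 had 1646, 1850 and 1667 counts in MA PANC-1 1 to 3 and 2354, 2175 and 1745 in PANC-1 1 to 3, so the neighbour held more reads than SPTB in each sample. Whether reads were assigned by strand is not given in the sources used here, and the part of PLEKHG3 in the SPTB value was not tested. The only gene overlapping SPTB on its own strand, MIR7855, had 1 count in each sample.

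Among the spectrins SPTB was the smallest component. It made up 1.03%, 0.911% and 0.867% of the summed FPKM of both beta chains in MA PANC-1 1 to 3, against 2.26%, 2.30% and 2.20% in PANC-1 1 to 3. The groups did not overlap and the shares of the untreated samples lay close together, at 2.25% ± 0.0504 (SD, n = 3) against 0.935% ± 0.0824 (SD, n = 3) after MA (exact permutation test, two-sided, p = 0.1). The level of the alpha chain relative to both beta chains was 0.766, 0.968 and 0.737 in MA PANC-1 1 to 3 and 0.788, 0.778 and 0.731 in PANC-1 1 to 3 (exact permutation test, p = 0.8). The high value belonged to MA PANC-1 2 alone, and without it the difference of the means, treated minus untreated, went from 0.0585 to −0.0135. Summed over the 3 spectrins the level was 59.9 ± 3.60 FPKM (SD, n = 3) after MA and 63.9 ± 3.68 FPKM (SD, n = 3) in untreated cells, with overlapping samples (exact permutation test, p = 0.3).

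**Figure D2:**
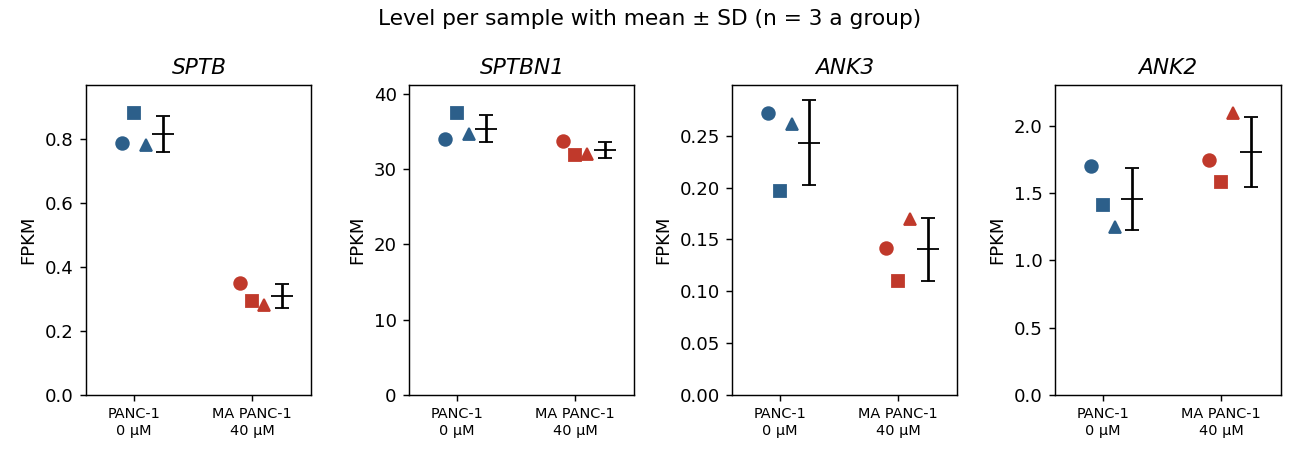
FPKM per sample, on axes that start at 0, of SPTB and its paralog SPTBN1 and of ANK3 and its paralog ANK2, with the mean ± SD of the 3 samples of each group beside the points. The treated samples of SPTB and ANK3 lie below all untreated samples, SPTBN1 is separated by 0.295 FPKM, and the ANK2 values overlap.

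Of the ankyrins, ANK1 (ENSG00000029534, chromosome 8, 41653220 to 41797622, minus strand), the ankyrin of the red cell, was the most abundant in PANC-1 cells and made up 65.2% to 77.4% of the summed ankyrin FPKM. It was at 5.49, 5.72 and 4.24 FPKM across MA PANC-1 1 to 3 and at 4.96, 5.50 and 4.45 FPKM in PANC-1 1 to 3. In each group replicate 2 was highest and replicate 3 lowest, as for SPTAN1 and ADD1, and the groups overlapped. The log2 fold change was 0.09 (SE 0.16, 95% interval −0.29 to 0.47, edgeR adjusted p = 0.847), and −0.03 without MA PANC-1 2.

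ANK2 (ENSG00000145362, chromosome 4, 112818109 to 113383729, plus strand), the ankyrin best known from heart and neurons, was at 1.74, 1.58 and 2.09 FPKM across MA PANC-1 1 to 3. It was at 1.70, 1.41 and 1.25 FPKM in PANC-1 1 to 3. The FPKM values overlapped, since PANC-1 1 exceeded MA PANC-1 2, whereas the TMM-scaled counts did not overlap. Its log2 fold change of 0.34 (SE 0.15, 95% interval −0.01 to 0.70, unadjusted p = 0.0547, edgeR adjusted p = 0.452) was the highest of the 8 genes, and it did not pass the test. AC004057 lies within ANK2 on the opposite strand. It had 1200, 962 and 2163 estimated counts in MA PANC-1 1 to 3 and 1160, 1126 and 1693 in PANC-1 1 to 3. The part of AC004057 in the ANK2 value was not tested.

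ANK3 (ENSG00000151150, chromosome 10, 60026298 to 60733490, minus strand) anchors E-cadherin at the lateral membrane of epithelial cells. Of the 8 genes tested in the 3 families, ANK3 was the least abundant. It was at 0.142, 0.110 and 0.170 FPKM across MA PANC-1 1 to 3, from 251, 219 and 307 estimated counts. In PANC-1 1 to 3 it was at 0.272, 0.196 and 0.261 FPKM, from 592, 400 and 480 counts. The groups did not overlap, but the gap of 0.0266 FPKM between PANC-1 2 and MA PANC-1 3 was narrower than the range within either group. The log2 fold change was −0.76 (SE 0.22, 95% interval −1.27 to −0.24, unadjusted p = 0.0102, edgeR adjusted p = 0.388), and −0.64 without MA PANC-1 2. In the 3 limma fits to the FPKM values its unadjusted p-value was no longer under 0.05, at 0.115 with a pseudocount of 0.1.

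By the values alone, 3 of the 8 genes tested had FPKM values that did not overlap between treated and untreated samples, SPTB, SPTBN1 and ANK3, all lower after MA. Among all genes tested 19.9% had groups that did not overlap, 11.1% lower and 8.79% higher after MA. Of the summed ankyrin FPKM, ANK3 made up 1.92%, 1.48% and 2.61% in MA PANC-1 1 to 3 and 3.92%, 2.76% and 4.38% in PANC-1 1 to 3. The groups did not overlap (exact permutation test, two-sided, p = 0.1), with a gap between PANC-1 2 and MA PANC-1 3 that was smaller than the range of either group. The summed level of the 3 ankyrins was 7.10 ± 0.512 FPKM (SD, n = 3) after MA and 6.67 ± 0.615 FPKM (SD, n = 3) without it (exact permutation test, p = 0.5).

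Of the adducins, ADD1 (ENSG00000087274, chromosome 4, 2843857 to 2930076, plus strand), the alpha chain found in most cells, was at 11.2, 12.1 and 10.4 FPKM across MA PANC-1 1 to 3 and at 10.7, 11.2 and 9.66 FPKM in PANC-1 1 to 3. The groups overlapped, and the log2 fold change was 0.13 (SE 0.11, 95% interval −0.13 to 0.40, edgeR adjusted p = 0.662), and 0.04 without MA PANC-1 2. ADD3 (ENSG00000148700, chromosome 10, 109996368 to 110135565, plus strand), the gamma chain that pairs with ADD1 outside the red cell, was at 2.89, 2.20 and 4.15 FPKM after MA and at 3.62, 3.26 and 4.39 FPKM in untreated cells. It varied most among the treated samples, with a coefficient of variation of 32.1%, and the groups overlapped. Its log2 fold change was −0.26 (SE 0.22, 95% interval −0.78 to 0.26, edgeR adjusted p = 0.663). Without MA PANC-1 2 it was −0.09 and without MA PANC-1 3 it was −0.51. ADD1 was highest and ADD3 lowest in MA PANC-1 2, and the reverse held in PANC-1 3. Their sum stayed between 14.0 and 14.6 FPKM in all 6 samples.

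**Figure D3:**
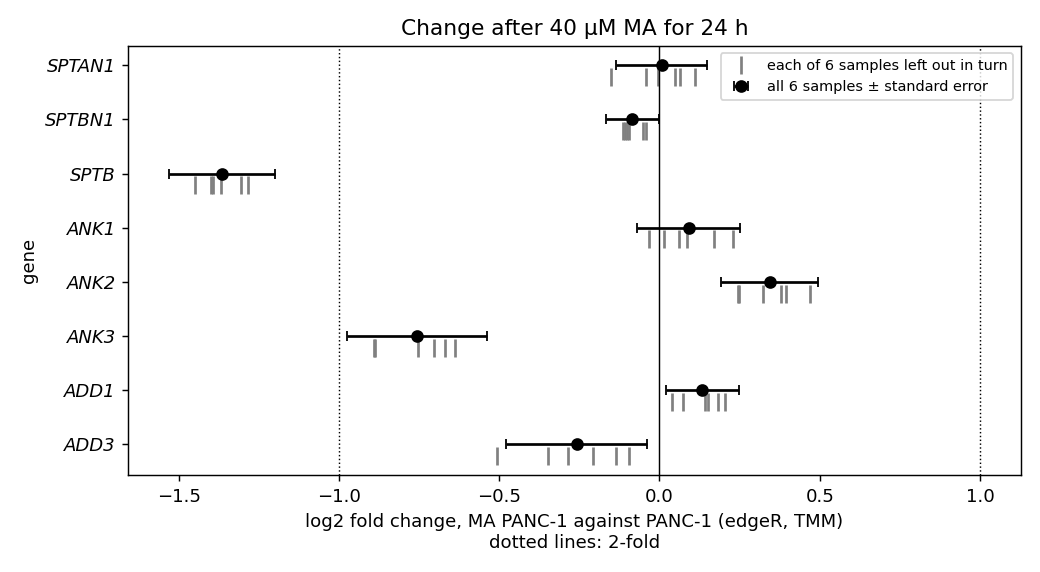
Log2 fold change of 8 genes, MA PANC-1 against PANC-1, from edgeR with its standard error (black), and the values with each of the 6 samples left out in turn (grey ticks). SPTB lies at −1.36 and stays beyond the 2-fold line in every fit, ANK3 lies at −0.76 short of it, and the other 6 genes lie between −0.26 and 0.34.

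SPTB and ANK1 are known from the red cell, so red cell markers were examined in the same samples. Of 11 such genes, 3 had no count in any sample, among them GYPB, a protein of the red cell surface, and KLF1, a transcription factor of red cell precursors. The FPKM of the whole list summed to 0.476, 0.193 and 0.545 in MA PANC-1 1 to 3 and to 0.470, 0.367 and 0.173 in PANC-1 1 to 3. These sums overlapped between the groups. The fetal globin HBG2 had 18, 4 and 4 counts in PANC-1 1 to 3 and none after MA. The anion exchanger SLC4A1 had 8, 27 and 0 counts in MA PANC-1 1 to 3 and none in untreated cells, and the other listed genes that were not tested had at most 8 counts in a sample. The part of these genes in the SPTB result was not tested. The most abundant gene of the list, the globin HBA1, had 4 to 18 estimated counts in a sample, and its reads cannot be told from those of its near-identical copy HBA2. Of 7 neuronal genes, the neurofilament gene NEFL was listed at 0 in every sample. RBFOX3 and STMN2 reached no more than 0.0503 and 0.0685 FPKM. The tubulin TUBB3 ranged from 21.0 to 58.3 FPKM, SYT1 from 3.81 to 7.21 FPKM, and the vesicle proteins SYP and SNAP25 from 1.39 to 2.02 FPKM. None of the 6 marker genes of these 2 lists that were tested reached an unadjusted p-value of 0.05 by edgeR, nor did the 4 tested markers of the cell line.

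Other beta spectrin genes were followed beside the 3 spectrins above. SPTBN5, the longest beta chain, was at a mean of 0.114 FPKM after MA and 0.130 FPKM in untreated cells, with a log2 fold change of −0.15 (SE 0.30, edgeR adjusted p = 0.876), and SPTBN4, a beta chain of axons, had means of 0.0875 and 0.107 FPKM in the same order, short of the filter on low values.

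Protein 4.1 of the red cell, encoded by EPB41, strengthens the contact of spectrin with actin. Whether the other genes of its family do so was not examined. EPB41L2, the form found in most cells, was the most abundant, at 13.8 ± 2.23 FPKM (SD, n = 3) after MA and 15.5 ± 0.611 FPKM (SD, n = 3) without (log2 fold change −0.14, SE 0.11, edgeR adjusted p = 0.629). EPB41L4B was at 1.35, 1.11 and 1.22 FPKM across MA PANC-1 1 to 3 and at 1.83, 1.82 and 1.66 FPKM in PANC-1 1 to 3. These values did not overlap, and the log2 fold change was −0.50 (SE 0.14, unadjusted p = 0.00809, edgeR adjusted p = 0.388). EPB41, the form of the red cell, was at 0.481, 0.489 and 0.530 FPKM after MA and at 1.13, 0.482 and 0.463 FPKM in untreated cells, so that PANC-1 1 alone stood high. EPB41L1, EPB41L4A and EPB41L5 had log2 fold changes between 0.06 and 0.12, and EPB41L3 had almost no reads.

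In 7 lists of genes around the lattice, 48 of 56 genes were tested. None was called by the thresholds of the study or passed the adjusted threshold in edgeR, DESeq2 or limma, and 9 showed unadjusted p-values below 0.05 by edgeR, 3 higher and 6 lower after MA, against 11.2% of all genes (5.37% higher and 5.86% lower). DESeq2 gave 12 such genes, against 12.1% of the 17707 genes to which it gave a p-value, and limma 9, against 11.0%. Their median log2 fold change was −0.05, against −0.002 for all genes tested, and −0.04 for the 8 genes of the spectrin, ankyrin and adducin families.

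Among the 16 membrane proteins that bind ankyrin, 12 were tested. ATP1B1, a beta subunit of an ion pump, was at 26.0, 22.2 and 27.6 FPKM across MA PANC-1 1 to 3 and at 33.5, 31.3 and 34.3 FPKM in PANC-1 1 to 3 (log2 fold change −0.35, SE 0.09, unadjusted p = 0.00607, edgeR adjusted p = 0.388). The hyaluronan receptor CD44 was at 12.3, 13.4 and 11.8 FPKM across MA PANC-1 1 to 3 and at 16.9, 15.7 and 16.7 FPKM in PANC-1 1 to 3 (log2 fold change −0.35, SE 0.10, unadjusted p = 0.0104, edgeR adjusted p = 0.388). Both genes were lower in every treated sample than in any untreated one, as were 11.1% of all genes. NFASC, a cell adhesion molecule, was higher in every treated sample than in any untreated one, as were 8.79% of all genes, with a log2 fold change of 0.30 (SE 0.14) that did not pass the test. Of the 12 genes 7 had a positive and 5 a negative log2 fold change, with a median of 0.16. CDH1, the E-cadherin that ANK3 binds, was at 0.893 ± 0.195 FPKM (SD, n = 3) and 0.966 ± 0.276 FPKM (SD, n = 3), a difference within the spread of the samples.

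Of 13 genes of the actin junction, where spectrin meets short actin filaments, 12 were tested, and 3 of these had unadjusted p-values below 0.05, against 11.2% of all genes. TMOD1, the tropomodulin that caps the slow-growing filament end in red cells, was at 0.850, 0.954 and 0.640 FPKM after MA and at 0.334, 0.357 and 0.655 FPKM in untreated cells (log2 fold change 0.91, SE 0.34, edgeR adjusted p = 0.431). PANC-1 3 lay within the treated range. CAPZA2, a subunit of the protein that caps the fast-growing end as adducin does, was at 3.34, 2.48 and 3.99 FPKM against 6.07, 3.57 and 6.67 FPKM (log2 fold change −0.70, SE 0.25, edgeR adjusted p = 0.429), and the groups overlapped. The tropomyosin TPM1 had a log2 fold change of −0.30 (SE 0.12, edgeR adjusted p = 0.435), and ACTB, the most abundant gene of the list, one of 0.07.

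All 6 genes of the list of calpains, their inhibitor CAST and caspases were tested, enzymes known to cut spectrin, and none reached an unadjusted p-value below 0.05 in edgeR. The calpain subunit CAPNS1 was the most abundant, at 157 ± 15.9 FPKM (SD, n = 3) after MA and 184 ± 37.3 FPKM (SD, n = 3) without. Of 6 kinases that phosphorylate adducin, PRKCD and PRKACA each had a log2 fold change of 0.38 (SE 0.14, edgeR adjusted p = 0.431) and PRKACB one of −0.41 (SE 0.15, edgeR adjusted p = 0.431), all 3 with an unadjusted p-value under 0.05, against 11.2% of all genes. PRKACB had the highest mean of the kinases over all 6 samples, though not among the treated ones, at 17.0 ± 3.93 FPKM (SD, n = 3) after MA and 23.1 ± 2.27 FPKM (SD, n = 3) without. Ezrin, radixin and moesin tie actin to the membrane without spectrin. With their scaffold SLC9A3R1 they made a list of 4 genes, none with an unadjusted p-value below 0.05 by edgeR, and EZR, the most abundant, had a log2 fold change of 0.13 (SE 0.08).

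**Figure D4:**
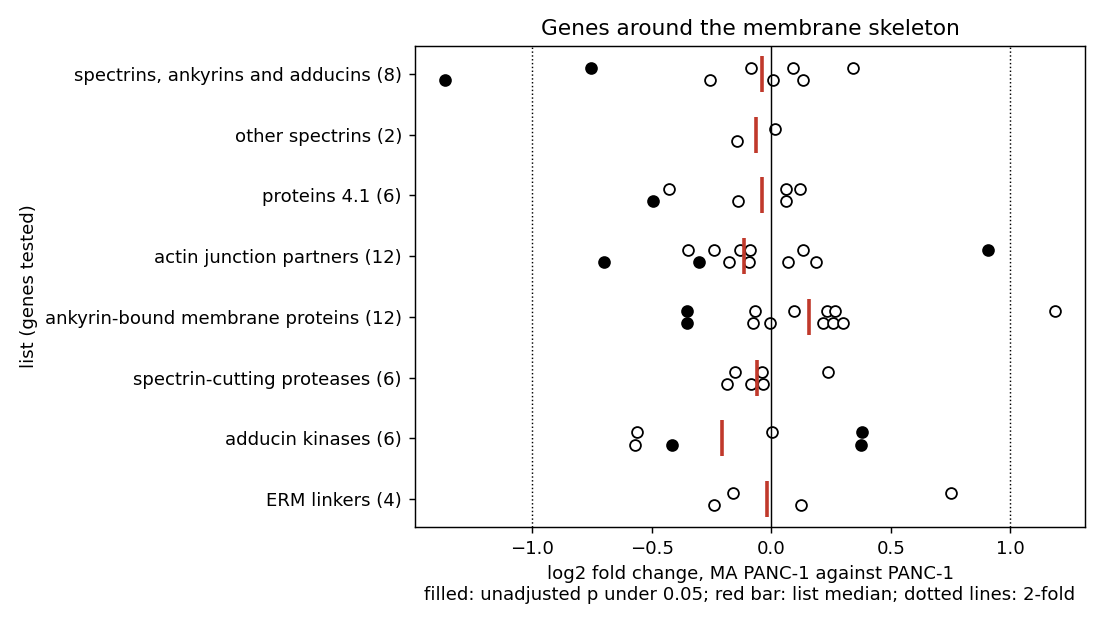
Log2 fold change (MA PANC-1 against PANC-1, edgeR) of each tested gene in the spectrin, ankyrin and adducin families and in 7 lists around them, filled where the unadjusted p-value was under 0.05, with the list median as a red bar. SPTB is the one filled point beyond a 2-fold line, and the open point at 1.19 is DAG1, which had a standard error of 1.12.

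The genes whose values over the 6 samples most resembled those of SPTB were found by the root mean square difference of log2(FPKM + 0.1), each gene centred on its own mean, among 14530 genes with a mean of at least 0.3 FPKM. The nearest was DIO3, which encodes a deiodinase that inactivates thyroid hormone, with a difference of 0.116 on the log2 scale. It was at 0.196, 0.186 and 0.204 FPKM across MA PANC-1 1 to 3 and at 0.553, 0.525 and 0.474 FPKM in PANC-1 1 to 3. LAPTM5, a lysosomal membrane protein of blood cells, and TLR6, a Toll-like receptor, followed with differences of 0.146 and 0.152, and ANK3, below that minimum, stood at 0.386. LAPTM5 was at 1.06, 0.899 and 0.752 FPKM against 1.99, 1.77 and 2.05 FPKM, and TLR6 at 1.71, 1.29 and 1.66 FPKM against 2.92, 3.31 and 3.25 FPKM. In all 3 genes, as in SPTB, the treated samples lay below the untreated ones, and with 6 samples such a likeness says nothing of shared control.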

How the data were processed

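RNA of 6 PANC-1 samples, 3 treated with 40 μM MA for 24 h and 3 untreated, was sequenced as poly(A) libraries, and samples were grouped by their titles. The study's methods call them biological replicates. The submitters' processing notes name cutadapt 1.9, HISAT2 2.0.4 and StringTie 1.3.4d without their roles, and the genome build is not given in the sources used here. Gene positions are printed as deposited, and they were identical to GRCh38 in GENCODE release 29 for 80.78% of genes. The authors deposited an FPKM value per gene and sample, with 0.0001 listed for a gene without reads, and beside it an estimated count, a whole number. The totals exceed the sequenced reads, and how the counts were derived is not given in the sources used here. The FPKM divisor of each gene was found from 759 genes with a single transcript.

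Counts were tested with edgeR 4.0.16 (R 4.3.3, quasi-likelihood test, TMM) over 17774 genes whose mean FPKM reached 0.1, adjusted by Benjamini-Hochberg. The standard error was the log2 fold change divided by the square root of F, and the 95% interval used the test's degrees of freedom. DESeq2 1.42.0, limma 3.58.1 on log2(FPKM + 0.1), other pseudocounts, filters and scalings, halved counts, a replicate block, summed overlapping genes and leaving out each sample were alternatives. The counts per longest transcript were added after seeing the data. The tests were checked on simulated data. Precision was judged from the spread between samples. The genes named are the 9 of the families, those of the other spectrins and proteins 4.1, the most abundant gene of each list, listed genes past a threshold, and the 3 genes most like SPTB. Those with an unadjusted p-value under 0.05, CDH1, NFASC, DAG1 and the markers cited were named after their values were seen. Members and lists were chosen with earlier results of these data known. Some genes that this rule names are not reported here.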

Additional observations from a re-analysis of the deposited data

How the results depend on the processing

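SPTB kept its direction in all 16 alternatives that gave it a value and its call by the thresholds of the study in 15, the other being limma with a pseudocount of 1 (log2 fold change −0.47). Its adjusted p-value ranged from 2.33e-10 (DESeq2) to 0.346 (without PANC-1 2). ANK3 kept its direction in all 16, between −0.89 and −0.12, with adjusted p-values from 0.0827 to 0.729. SPTBN1, ANK2, ADD1 and ADD3 kept theirs in all 17. SPTAN1, at 0.01, changed sign in 10 of 17: −0.04 in each limma fit (−0.0422, −0.0406 and −0.0423 with pseudocounts of 0.1, 1 and 0.01), −0.0052 with upper quartile factors, −0.0002 without a filter, −0.0152 at a mean FPKM of at least 1, −0.0060 with the replicate block, and between −0.15 and 0.11 with each sample left out. ANK1 ranged from −0.0330 (without MA PANC-1 2) to 0.23 with each sample left out.

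Over all genes, 7 passed the adjusted threshold. DESeq2 gave 263, a filter at a mean FPKM of 1 gave 12, and with each sample left out the count ran from 3 (without PANC-1 2) to 24 (without MA PANC-1 2), with 4 without MA PANC-1 1. By the thresholds of the study 342 genes were called, 44 in limma with a pseudocount of 1, 569 without a filter, 93 at a mean FPKM of at least 1, and 326 to 534 when leaving samples out in turn (534 without MA PANC-1 3). The replicate block gave 0 genes past the adjusted threshold in edgeR. Deviations of same-numbered samples correlated at 0.0294, 0.0502 and 0.0724. These correlations were low, but each treated sample correlated best with its own number. Whether the numbers mark pairs was not settled, and the main fit did not use them as pairs. With the replicate block the unadjusted edgeR p-value was 0.0773 for ADD3 and 0.166 for ADD1, against 0.279 and 0.278 without it. For SPTB it rose from 6.27e-05 to 0.000349. Higher and lower calls were 120 and 222 in edgeR, 22 and 22 in limma with a pseudocount of 1, and 43 and 50 at a mean FPKM of at least 1. The drop in the SPTB share of beta spectrins, −1.32 percentage points by FPKM, was −1.06 by counts and −1.06 per longest transcript, and that of ANK3 among the ankyrins, −1.68, was −3.37 by counts. SPTB and ANK3 could not be fitted at a mean FPKM of at least 1. The causes were not tested. Halving all counts kept SPTB at −1.37 and ANK3 at −0.75.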

Other observations

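DAG1, a receptor of the ankyrin-bound list whose values were noticed after the fact, had 28736, 34169 and 2876 estimated counts in MA PANC-1 1 to 3 and 29103, 2489 and 2778 in PANC-1 1 to 3. The samples thus fell into a high and a low level that did not follow the treatment, and no other gene of the table overlaps DAG1. Its log2 fold change of 1.19 (SE 1.12, edgeR adjusted p = 0.693) was 3.15 without PANC-1 1 and 1.71 without MA PANC-1 3.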
